A study of Mus musculus with 18 samples.

Results

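The 10 cell-surface and secreted proteoglycan genes described here were followed in lung fibroblasts that had entered a collagen gel and in fibroblasts that had stayed on top of it. They were chosen by gene symbol: the syndecans Sdc1, Sdc2, Sdc3 and Sdc4, the glypicans Gpc1, Gpc3, Gpc4 and Gpc6, the transmembrane chondroitin sulphate proteoglycan Cspg4 (NG2) and the secreted versican (Vcan). The choice was made with earlier results of these data known, so counts of these genes beside shares of all genes are a description. These 10 genes are part of 19938 genes on the array that have a probe set with exactly 1 gene symbol, and each of the 10 has 1 such probe set.

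A proteoglycan is a core protein that carries long sulphated sugar chains, heparan sulphate or chondroitin sulphate, built on it in the Golgi. Syndecans cross the membrane and hold a short cytoplasmic tail that binds scaffold proteins, whereas glypicans are tied to the outer membrane by a lipid anchor. Through their heparan sulphate both families hold growth factors and matrix proteins at the cell surface. Cspg4 is known from pericytes and glial precursor cells and binds collagen VI, and versican is a large hyaluronan-binding component of provisional matrix.

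MLg 2908, a line of fibroblasts from newborn ddY mouse lung with a wild-type genotype, was plated on a 3D collagen matrix and separated into an invading and a non-invading fraction. Total RNA was hybridised to Affymetrix Mouse Gene 1.0 ST arrays after 96 h (5 invading and 5 non-invading samples) or after 72 h (4 invading and 4 non-invading samples), numbered as biological replicates. All samples come from 1 cell line. The fractions were separated by where the cells lay, and the labels name no genetic change between them. The treatment entry of every sample mentions TGFB1 beside the assay, while the titles mention no treatment and a figure legend of the study marks the cells as non-treated, so whether TGFB1 was present in these cultures could not be settled.

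All values below are log2 signals, normalized between arrays, and a difference is invading minus non-invading on that log2 scale. A gene was called at an adjusted p under 0.10 (limma, Benjamini-Hochberg over 35556 probe sets). In RNA from a bulk fraction, fewer cells that express a gene and less RNA per cell cannot be told apart. Array medians lay between 6.46 and 6.65, and samples of 1 group correlated at 0.9914 to 0.9961. Of 10 fibroblast markers, 9 exceeded a linear signal of 100 in all 18 samples, and Thy1 exceeded it in none. Of the 10, 0 were called higher and 3 lower at 96 h (0 and 3 at an unadjusted p under 0.05), and 1 higher and 3 lower at 72 h. The summed signal of 8 epithelial markers was 556 to 595 in invading against 459 to 548 in non-invading samples at 96 h, and 586 to 692 against 497 to 592 at 72 h. Krt8 was the 1 gene of these above 100 in all 18 samples, and 3 of the 8 were called higher at 96 h and 1 at 72 h. Beside these marker counts, 16.7% of all genes were called higher and 14.7% lower at 96 h, and 13.0% and 13.5% at 72 h.

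At 96 h, 4 of the 10 genes were higher in the invading fraction (Sdc1, Sdc3, Gpc1 and Cspg4) and 2 were lower (Gpc4 and Gpc6). The array as a whole had 16.7% of genes called higher and 14.7% called lower at that time. At 72 h, Sdc1 and Gpc1 were higher and Gpc4 and Gpc6 were lower, beside 13.0% and 13.5% of all genes. Gpc1 alone also passed a ratio of 1.5, at both times, which 1.14% of all genes did upwards at 96 h and 0.873% at 72 h. The 2 groups did not overlap, with the invading samples higher, for 3 of the 10 genes at 96 h (background 9.35%) and for 2 at 72 h (12.5%). Invading samples were lower without overlap for 2 genes at 96 h (background 8.80%) and for 2 at 72 h (12.3%). Both times called Sdc1 and Gpc1 higher (8.39% of all genes were) and Gpc4 and Gpc6 lower (9.60%). The median difference over the 10 genes was 0.20 at 96 h, against 0.02 over all genes, and 0.08 at 72 h, against 0.04. When arrays were centred on the median of their probe sets, the median over all genes moved to 0.14 at 96 h and 0.12 at 72 h, and the split of calls over all genes became 45.7% higher and 7.92% lower at 96 h and 25.2% and 9.35% at 72 h. Under that centring 7 of the 10 genes were called higher at 96 h and 4 at 72 h, and 2 were called lower at each time. No call of the 10 genes between the fractions was lost, and no called direction turned.

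**Figure D1:**
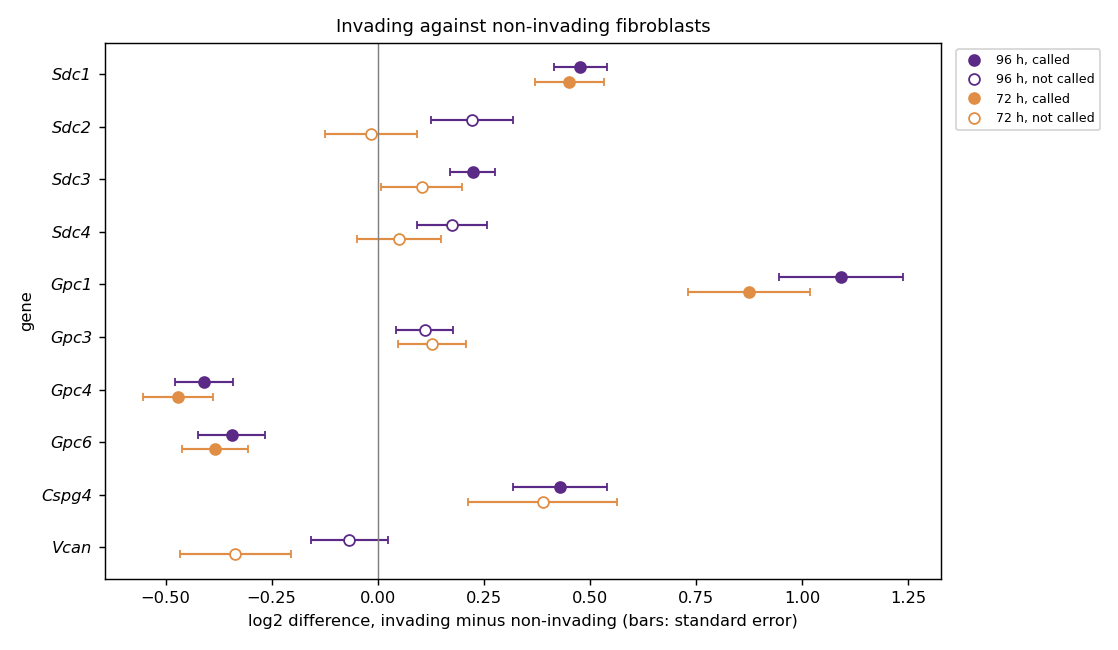
Difference in log2 signal, invading minus non-invading, on the horizontal axis for each of the 10 genes, at 96 h (purple) and 72 h (orange); filled points were called at an adjusted p under 0.10 and bars are the standard error. Gpc1 lies farthest to the right at 1.09 and 0.87, and Gpc4 and Gpc6 lie left of 0 at both times.

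Sdc1 was higher in the invading fraction at both times. The gene encodes syndecan-1, known as the main syndecan of epithelia and plasma cells, and lies on chr12:8771396-8793716 (GRCm38.p6). At 96 h its signal was 10.41, 10.46, 10.53, 10.33 and 10.63 in the invading samples, against 9.96, 9.94, 10.01, 9.98 and 10.08 in the non-invading samples. Every invading sample lay above every non-invading one. The difference was 0.48 ± 0.06 (SE), a ratio of 1.39 (adjusted p = 0.000328). At 72 h the invading samples had 10.74, 10.78, 10.62 and 10.60, against 10.41, 10.15, 10.15 and 10.22 in the non-invading samples. The groups were again apart, by 0.45 ± 0.08 or 1.37-fold (adjusted p = 0.0055). The epithelial marker Krt8 averaged 7.69 in invading and 7.37 in non-invading samples at 96 h and 7.88 and 7.34 at 72 h, and its part in the Sdc1 result was not tested.

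Sdc3 was higher in the invading fraction at 96 h. Syndecan-3, on chr4:130792537-130826318, is best known from nerve and developing muscle. Its signal was 9.79, 9.92, 9.92, 9.80 and 9.84 in invading samples, against 9.54, 9.73, 9.64, 9.60 and 9.63 in non-invading samples. The lowest invading sample lay above the highest non-invading one, and the difference of 0.22 ± 0.05 was a ratio of 1.17 (adjusted p = 0.00947). At 72 h the 2 groups overlapped, at 9.98 to 10.23 in invading and 9.83 to 10.17 in non-invading samples. The difference there was 0.10 with a 95% interval of -0.11 to 0.32 (adjusted p = 0.495).

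Sdc2 and Sdc4 were not called between the fractions at either time in the main fits, which hold no pairing. Over the alternative settings with all samples kept, the 96 h adjusted p ran from 0.0156 to 0.125 for Sdc2. For Sdc4 it ran from 0.0137 to 0.145. The lowest value of each gene came from a fit without pairing on arrays centred on their median. Sdc2, on chr15:32920723-33034721, is the syndecan typical of mesenchymal cells. It averaged 11.83 ± 0.10 (SD, n = 5) in invading and 11.61 ± 0.21 (n = 5) in non-invading samples at 96 h, a difference of 0.22 with a 95% interval of 0.01 to 0.44 (adjusted p = 0.116). Non-invading replicate 1 reached 11.94 there, inside the invading range of 11.71 to 11.97. Without this sample the difference was 0.31 (adjusted p = 0.0134). At 72 h Sdc2 averaged 11.33 ± 0.19 in invading and 11.35 ± 0.15 in non-invading samples (SD, n = 4 each), and the interval ran from -0.26 to 0.23. The sign of that small difference turned to 0.06 with arrays centred on their median. Sdc4, the syndecan of focal adhesions, on chr2:164424247-164443188, averaged 10.63 ± 0.15 in invading and 10.45 ± 0.11 in non-invading samples at 96 h (interval 0 to 0.36, adjusted p = 0.139). Without invading replicate 1, the lowest of its group at 10.38, the 96 h difference was 0.24 (adjusted p = 0.0273). With the replicate number as a block both genes were called at 96 h (adjusted p = 0.0456 for Sdc2 and 0.051 for Sdc4), and the invading sample was the higher one for 5 of 5 numbers in each gene. The labels do not say whether same-numbered samples belong together. At 72 h Sdc4 averaged 10.67 ± 0.13 in invading and 10.62 ± 0.16 in non-invading samples, with an interval of -0.17 to 0.27.

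Gpc1 had the widest difference of the 10 genes at both times. Glypican-1, on chr1:92831645-92860211, is a lipid-anchored heparan sulphate proteoglycan that binds FGF2 and other heparin-binding factors. At 96 h its signal was 10.39, 10.14, 10.03, 9.90 and 10.04 in invading samples, against 9.56, 8.94, 8.86, 8.94 and 8.72 in non-invading samples. The groups stood apart, although non-invading replicate 1 lay well above its group. The difference was 1.09 ± 0.15, or 2.13-fold (adjusted p = 0.000376), and it was 1.23 without that sample. At 72 h the invading samples had 10.36, 10.51, 10.23 and 10.02, against 9.69, 9.55, 9.24 and 9.15 in the non-invading samples. No invading sample fell into the non-invading range, and the difference was 0.87 ± 0.14, or 1.83-fold (adjusted p = 0.0038).

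Invading cells had less Gpc4 and Gpc6 signal at both times. The genes encode closely related glypicans, known in the brain as astrocyte proteins that promote the formation of synapses. Gpc4, on chrX:52051007-52164923, had 10.87, 10.80, 10.87, 10.77 and 10.95 in invading samples at 96 h, against 11.07, 11.38, 11.30, 11.20 and 11.35 in non-invading samples. The groups did not overlap, and the difference was -0.41 ± 0.07, a ratio of 0.753 (adjusted p = 0.0013). At 72 h Gpc4 had 10.79, 10.71, 10.74 and 10.51 in invading samples, against 11.26, 11.20, 11.05 and 11.11 in non-invading samples. All 4 invading samples lay below the non-invading ones, with a difference of -0.47 ± 0.08 and a ratio of 0.722 (adjusted p = 0.00499).

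Gpc6, on chr14:116924920-117979529, spans the longest locus of the 10. At 96 h it had 9.79, 9.71, 9.81, 9.56 and 9.82 in invading samples, against 9.99, 10.20, 10.14, 9.87 and 10.20 in non-invading samples. The ranges were close but did not overlap, and the difference was -0.34 ± 0.08, a ratio of 0.788 (adjusted p = 0.00797). At 72 h the invading samples were tightly grouped at 9.74, 9.77, 9.75 and 9.70, against 10.06, 10.03, 10.08 and 10.33 in the non-invading samples. The difference was -0.38 ± 0.08, a ratio of 0.766 (adjusted p = 0.00948), and it was -0.32 without non-invading replicate 4, the highest of its group.

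Gpc3 gave low signal in all groups. Loss of its human counterpart causes an overgrowth syndrome, and in the mouse the gene, on chrX:52272426-52613974, is the neighbour of Gpc4 with a gap of 108 kb between them. The group means were 5.59 in invading and 5.48 in non-invading samples at 96 h and 5.68 and 5.55 at 72 h. No sample passed a linear signal of 100, which the other 9 genes passed in all 18 samples. Gpc3 was not called at 96 h (difference 0.11, interval -0.04 to 0.26) or at 72 h (0.13, interval -0.05 to 0.31).

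To show the start regions of genes that differed in opposite directions, and of the low Gpc3 beside Gpc4, the 250 bases before the RefSeq start are given for 4 of the genes (GRCm38.p6), printed 5′ to 3′ on the strand of the gene. RefSeq start regions were matched for 7 of the 10 genes. The matched Vcan region, chr13:89742513-89742762 on the minus strand and not printed, lies inside the Vcan locus chr13:89655309-89743027. It therefore precedes a start within that locus and not the outer end of the gene. Capitals mark letters that match 1 of 6 searched motifs on either strand, each of which is spelled out after the sequences.
Sdc1, chr12:8771146-8771395, plus strand: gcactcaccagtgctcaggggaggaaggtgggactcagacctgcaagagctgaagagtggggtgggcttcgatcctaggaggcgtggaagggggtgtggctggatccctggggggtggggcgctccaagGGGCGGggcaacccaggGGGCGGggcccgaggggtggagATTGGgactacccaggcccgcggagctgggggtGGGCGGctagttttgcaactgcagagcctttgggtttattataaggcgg
Cspg4, chr9:56864854-56865103, plus strand: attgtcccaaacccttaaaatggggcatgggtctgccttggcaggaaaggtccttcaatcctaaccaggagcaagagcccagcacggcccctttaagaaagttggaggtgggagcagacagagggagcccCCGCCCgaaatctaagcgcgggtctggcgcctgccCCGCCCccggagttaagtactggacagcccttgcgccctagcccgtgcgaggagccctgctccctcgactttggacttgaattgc
Gpc4, chrX:52164924-52165173, minus strand: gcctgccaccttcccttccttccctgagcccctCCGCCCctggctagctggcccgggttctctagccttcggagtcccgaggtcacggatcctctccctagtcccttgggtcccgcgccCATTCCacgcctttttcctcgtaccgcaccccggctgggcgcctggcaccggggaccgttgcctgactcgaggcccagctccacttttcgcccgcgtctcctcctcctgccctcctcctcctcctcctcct
Gpc3, chrX:52613975-52614224, minus strand: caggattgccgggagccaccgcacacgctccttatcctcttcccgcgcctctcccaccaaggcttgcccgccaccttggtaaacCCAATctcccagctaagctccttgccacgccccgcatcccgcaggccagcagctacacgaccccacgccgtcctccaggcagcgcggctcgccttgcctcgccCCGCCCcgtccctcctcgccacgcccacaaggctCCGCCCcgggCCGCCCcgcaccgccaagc
The Sdc1 region held 3 GC boxes and 1 CCAAT box, and the Cspg4 region 2 GC boxes. The Gpc4 region held 1 GC box and, at position -131 from the start site, 1 letter match to the TEAD motif, and the Gpc3 region 3 GC boxes and 1 CCAAT box. All 7 matched regions held at least 1 GC box, searched as GGGCGG, which 32.7% of 32851 RefSeq start regions of this length hold. The CCAAT box, searched by those letters, was present in 33.8% of all regions. For the TEAD motif the letters were CATTCC, and 12.6% of all regions hold them. None of the 7 regions had the TATA box letters TATAAA, present in 12.4% of all regions. The AP-1 letters TGAGTCA, with a background of 4.46%, were not found in the 7 either. Nor was the E-box, spelled CACGTG, with a background of 6.02%. No 2 of these motifs overlap in the printed regions. G and C made up 66% of the Sdc1, 60.4% of the Cspg4, 68.4% of the Gpc4 and 71.6% of the Gpc3 region, against a median of 52.4% over all regions. The GC box letters were found in Sdc1, Sdc3 and Cspg4, called higher in invading cells at 96 h, and in Gpc4, called lower. No start region was matched for Gpc6, which was also called lower. A match is no measurement of binding.

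Cspg4 was higher in the invading fraction at 96 h. The NG2 proteoglycan it encodes, on chr9:56865104-56899870, carries chondroitin sulphate across the membrane. Invading samples at 96 h had 8.82, 8.52, 8.56, 8.51 and 8.31, against 8.45, 8.03, 8.05, 7.91 and 8.12 in non-invading samples. The difference was 0.43 ± 0.11, a ratio of 1.35 (adjusted p = 0.0147), and the groups overlapped because invading replicate 5 lay below non-invading replicate 1. At 72 h the invading samples spread widely, at 9.04, 8.96, 8.58 and 8.26, against 8.58, 8.37, 8.22 and 8.10 in the non-invading samples. The difference of 0.39 ± 0.18 was not called (adjusted p = 0.156), and without invading replicate 4 it was 0.54 (adjusted p = 0.0411). With the replicate number as a block it was called (adjusted p = 0.036), with the invading sample higher for 4 of 4 numbers. Of 6 pericyte markers, Notch3, Pdgfrb and Mcam exceeded a linear signal of 100 in all 18 samples, and Rgs5, Kcnj8 and Abcc9 in none. Their summed signal was 4850 to 5550 in invading and 4900 to 5480 in non-invading samples at 96 h, and 4900 to 5760 and 4640 to 5070 at 72 h. Of the 6, 2 were called lower and 0 higher at 96 h (2 and 0 at an unadjusted p under 0.05), and 1 in each direction at 72 h. The shares of all genes were 14.7% lower and 16.7% higher at 96 h, and 13.5% and 13.0% at 72 h.

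Versican, on chr13:89655309-89743027, was not called between the fractions. At 96 h Vcan averaged 11.56 ± 0.11 in invading and 11.62 ± 0.19 in non-invading samples (SD, n = 5 each), with an interval of -0.27 to 0.13. That sign turned to 0.05 with arrays centred on their median. At 72 h it averaged 11.27 ± 0.27 in invading and 11.61 ± 0.13 in non-invading samples (SD, n = 4 each), and the difference of -0.34 missed the threshold (interval -0.63 to -0.04, adjusted p = 0.105). Invading replicate 4 was the lowest of all 18 samples at 10.89, and without it the difference was -0.21. Leaving out any 1 of 3 other samples, invading replicate 2 or 3 or non-invading replicate 2, gave adjusted p of 0.0835, 0.0897 and 0.0974.

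**Figure D2:**
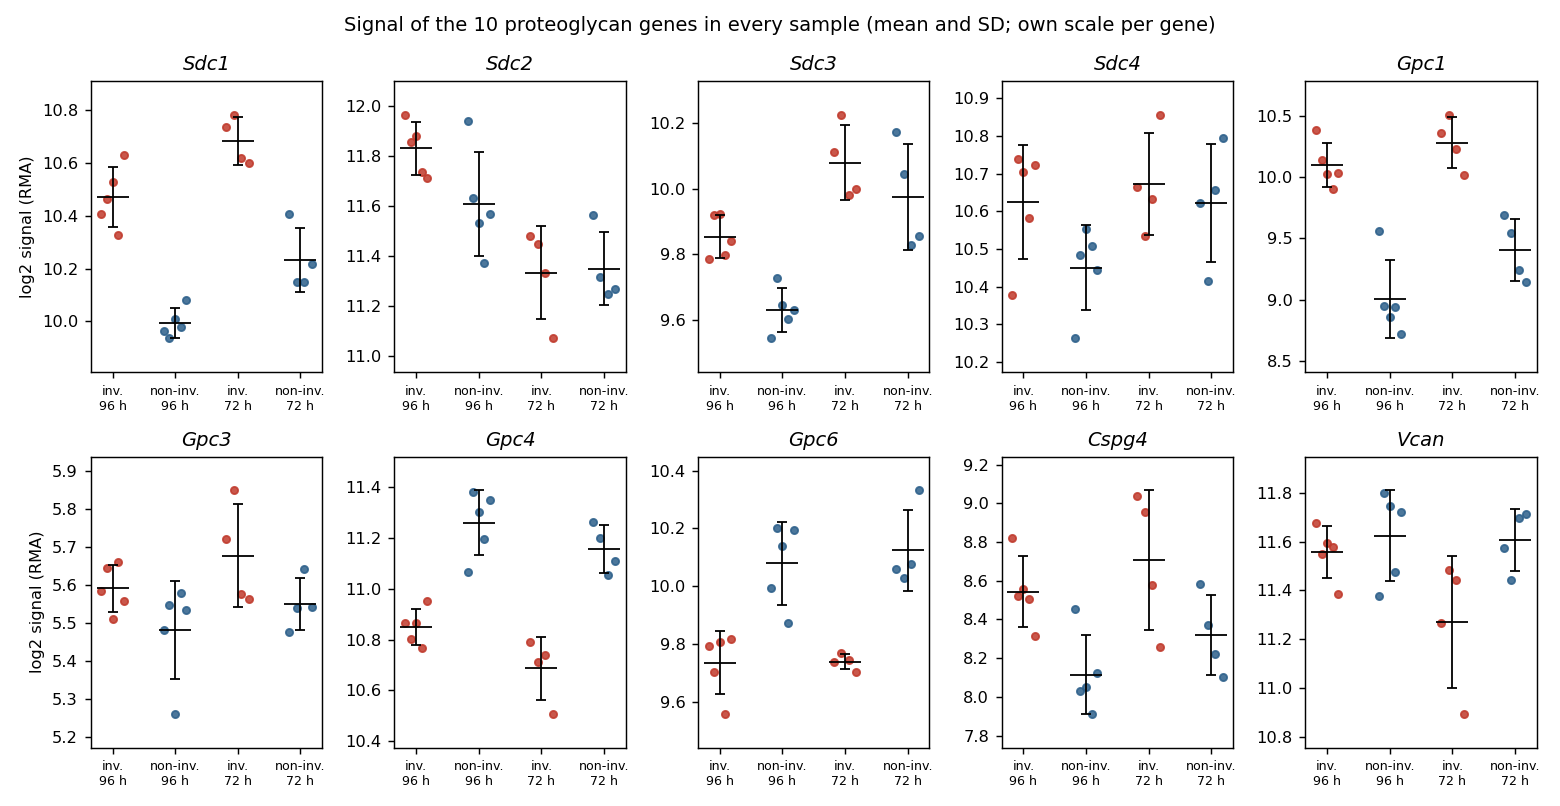
Log2 signal on the vertical axis (own scale for each gene) in every sample of the invading (red) and non-invading (blue) fractions at 96 h and 72 h; the wide bar is the group mean and the error bar the SD. For Sdc1, Gpc1, Gpc4 and Gpc6 the fractions lie apart at both times, while Gpc3 stays between 5.26 and 5.85 in all samples.

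The 2 times were compared within each fraction. In the invading fraction, Sdc2 and Vcan were higher at 96 h than at 72 h, and Sdc1 and Sdc3 were lower, beside 18.2% and 16.7% of all genes. In the non-invading fraction Sdc1, Sdc3 and Gpc1 were lower at 96 h, where 12.2% of all genes were, and 0 of the 10 genes were called higher with limma (1, Sdc2, at an unadjusted p under 0.05), beside 15.4% of all genes.

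Sdc2 was the gene that differed most between the times. The invading samples had 11.97, 11.86, 11.88, 11.74 and 11.71 at 96 h, against 11.48, 11.45, 11.33 and 11.07 at 72 h. All invading samples at 96 h lay above those at 72 h, with a difference of 0.50 ± 0.11 or 1.41-fold (adjusted p = 0.00226). In the non-invading fraction Sdc2 had 11.37 to 11.94 at 96 h, against 11.25 to 11.57 at 72 h, an overlapping difference of 0.26 ± 0.11 that fell just short of the threshold. Single samples decided this: without invading replicate 4 at 72 h, non-invading replicate 1 at 72 h or non-invading replicate 4 at 96 h the adjusted p was 0.0715, 0.0492 and 0.0445.

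Sdc1 and Sdc3 were lower at the later time in both fractions. For Sdc3 the non-invading samples had 9.54 to 9.73 at 96 h and 9.83 to 10.17 at 72 h, with no overlap and a difference of -0.35 ± 0.07 (ratio 0.787, adjusted p = 0.00281). The invading samples had 9.79 to 9.92 at 96 h and 9.98 to 10.23 at 72 h, again apart, by -0.23 ± 0.07 (adjusted p = 0.0308). Sdc1 differed by -0.24 ± 0.07 in the non-invading fraction, without overlap (adjusted p = 0.0211), and by -0.21 ± 0.07 in the invading fraction, where the groups overlapped (adjusted p = 0.0319). Both invading calls narrowly missed the threshold without invading replicate 2 at 72 h, where the difference was -0.18 for Sdc1 (adjusted p = 0.104) and -0.18 for Sdc3 (adjusted p = 0.114).

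Gpc1 was lower at 96 h than at 72 h among non-invading samples, by -0.40 ± 0.16 or 0.758-fold with overlapping groups (adjusted p = 0.0812). The call was lost without any 1 of 6 samples: non-invading replicates 1 and 2 at 72 h and 2, 3, 4 and 5 at 96 h. Differences of -0.30 to -0.38 remained there, at adjusted p between 0.123 and 0.222. Without non-invading replicate 1 at 96 h, which lay well above its group, the difference was -0.54. The lowest adjusted p over the left-out samples was 0.00807. Among invading samples Gpc1 differed by -0.18 (interval -0.51 to 0.15). Vcan was higher at 96 h in the invading fraction by 0.29 ± 0.11 or 1.22-fold (adjusted p = 0.0778). Without invading replicate 4 at 72 h, the low sample named above, the Vcan difference was 0.16 (adjusted p = 0.301), and leaving out invading replicate 1 at 72 h or replicates 1, 2, 3 or 4 at 96 h left differences of 0.26 to 0.29 at adjusted p of 0.11 to 0.154. In the non-invading fraction Vcan differed by 0.02 (interval -0.22 to 0.26).

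Sdc4, Gpc3, Gpc4, Gpc6 and Cspg4 were not called between the times in either fraction. Gpc4 came nearest, at 0.17 in the invading fraction (interval 0.01 to 0.32, adjusted p = 0.117). It passed without invading replicate 1 at 72 h (adjusted p = 0.0904) or non-invading replicate 1 at 96 h (0.0847). Sdc4 differed by -0.17 in the non-invading fraction (interval -0.36 to 0.02), and passed without non-invading replicate 2 at 72 h (adjusted p = 0.0982). Gpc6 was the flattest over time in the invading fraction, at -0.004 (interval -0.17 to 0.16). In the non-invading fraction it had -0.04 (interval -0.21 to 0.12).

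**Figure D3:**
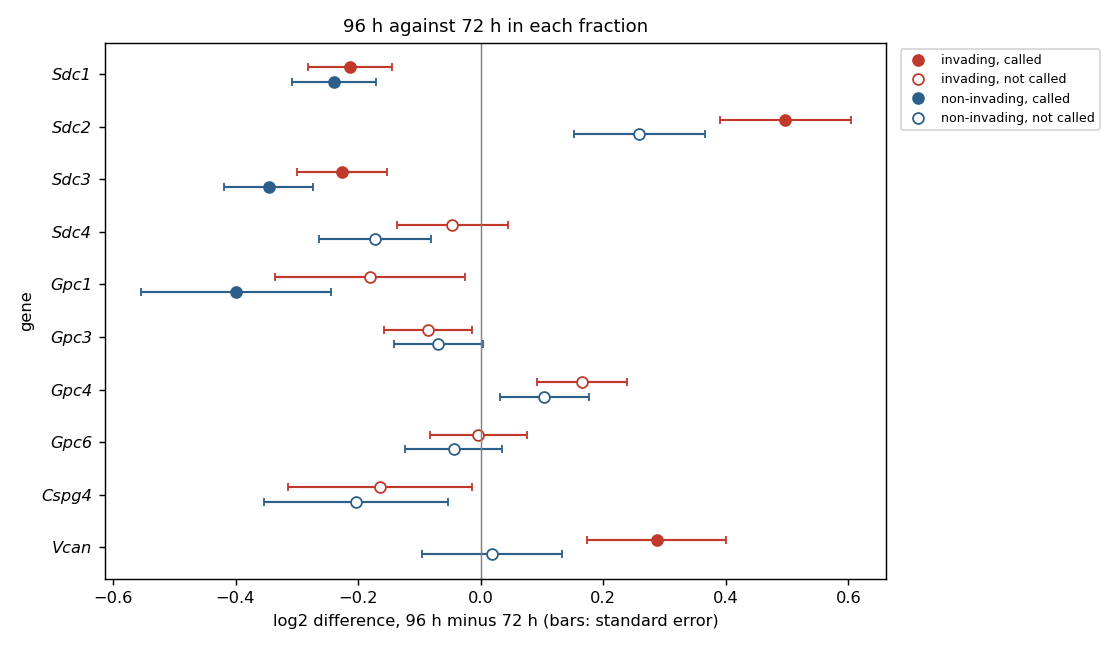
Difference in log2 signal, 96 h minus 72 h, on the horizontal axis for each of the 10 genes in the invading (red) and non-invading (blue) fractions; filled points were called at an adjusted p under 0.10 and bars are the standard error. Sdc2 lies farthest right at 0.50 in the invading fraction, and Gpc1 farthest left at -0.40 in the non-invading fraction.

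Whether the fraction difference itself changed between 96 h and 72 h was tested in the same fit. None of the 10 genes passed in limma (0 also at an unadjusted p under 0.05), beside 0.0150% of all genes. The 2 genes nearest to the threshold were Vcan, with a difference of differences of 0.27 (interval -0.07 to 0.61, adjusted p = 0.694), and Sdc2, with 0.24 (interval -0.08 to 0.56, adjusted p = 0.715). For Gpc1 the invading excess was larger at 96 h by 0.22, with an interval of -0.24 to 0.68. Sdc3 and Cspg4, called between the fractions at 96 h and not at 72 h, were not shown to differ between the times, with differences of differences of 0.12 (interval -0.10 to 0.34) and 0.04 (interval -0.41 to 0.49).

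The order of the 4 group means differed from gene to gene. For Sdc1 the highest was invading at 72 h (10.68), followed by invading at 96 h (10.47), non-invading at 72 h (10.23) and non-invading at 96 h (9.99). Its neighbouring groups overlapped in their samples, apart from the 2 non-invading ones. Gpc1 had the same order, at 10.28, 10.10, 9.41 and 9.01, with overlap between the 2 invading groups and between the 2 non-invading groups. Gpc4 ran the other way, with invading at 72 h lowest (10.69), followed upwards by invading at 96 h (10.85), non-invading at 72 h (11.16) and non-invading at 96 h (11.26). Only its middle neighbours were apart in their samples. For Sdc3 both groups of 72 h (invading 10.08, non-invading 9.98) lay above both groups of 96 h (invading 9.85, non-invading 9.63), and the 2 groups of 96 h were the only neighbours without overlap. Gpc6 had both invading groups (9.74 at each time) below both non-invading ones (10.08 at 96 h, 10.12 at 72 h), apart from each other but overlapping within a fraction. For Sdc2, Sdc4, Gpc3, Cspg4 and Vcan every group overlapped with its neighbour in the order. The range over the 4 means was 1.27 for Gpc1, the widest, and 0.20 for Gpc3, the narrowest, with Sdc4 next at 0.22.

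Across the 18 samples, which share groups, times and arrays, Gpc1 and Cspg4 followed each other closely (Pearson r = 0.88, and 0.80 once each group was set to its own mean). Gpc1 and Sdc1 also correlated at 0.88, but at 0.18 once group means were removed. The relation of Gpc4 and Gpc6 gave 0.83 and 0.44. Gpc1 ran against Gpc4 at -0.84 over all samples and at -0.02 within groups. Sdc1 ran against Gpc4 at -0.80 over all samples, whereas within groups the sign was the opposite, 0.55. Sdc2 related to Cspg4 at 0.30 over all samples and at 0.91 within groups, where the samples numbered 1 were the highest of their group for Sdc2 in all 4 groups and for Cspg4 in all 4. Sdc4 ran against Cspg4 within groups, at -0.73. These coefficients describe 18 samples and were given no p.

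The genes with the pattern most like each member over the 18 samples were named by Pearson r. They are the 3 highest for each member in a search over 19938 genes, and the samples share groups. With group means removed, the coefficients of the named genes ran from 0.48 (Nbl1 with Sdc1) to 0.9 (St3gal4 with Gpc1 and Hip1 with Cspg4). For Sdc1 they were 0.69, 0.51 and 0.48 in the order given below. For Gpc1 they were Inava (0.98), Rps28 (0.966) and St3gal4 (0.961), and for Sdc1 B4galnt1 (0.967), Rprl1 (0.958) and Nbl1 (0.955). For Gpc4 they were Sgms1 (0.963), Col5a2 (0.961) and Tmco1 (0.946), and for Gpc6 Nid2 (0.919), Col3a1 (0.911) and Crim1 (0.91). For Cspg4 they were Hip1 (0.921), Ngef (0.91) and Rai14 (0.908). Sdc2 was nearest to Scpep1 (0.901), Nrbf2 (0.899) and Noc3l (0.892), and Sdc3 to Ssc5d (0.929), Furin (0.926) and Mvb12b (0.924). Sdc4 was nearest to Rbpms (0.845), Abcd2 (0.838) and Tmem71 (0.835), and Vcan to 1600012H06Rik (0.904), Rnf103 (0.893) and Kmt2e (0.865). Gpc3, low in all samples, was nearest to Krt27 (0.888), Gpank1 (0.852) and Tomm20l (0.789).

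Other core proteins that can carry these chains were compared in the same fits. For this and the lists that follow, the shares of all genes called higher and lower were 16.7% and 14.7% at 96 h and 13.0% and 13.5% at 72 h. Of 17 measured, 1 was higher and 4 were lower in the invading fraction at 96 h, and 1 was higher and 3 lower at 72 h. Their median difference was -0.02 at 96 h and 0.05 at 72 h, against 0.02 and 0.04 over all genes. Collagen XVIII (Col18a1), a basement membrane collagen with heparan sulphate chains, was higher by 0.46 at 96 h and 0.61 at 72 h (adjusted p = 0.00173 and 0.0198). Perlecan (Hspg2), the large heparan sulphate proteoglycan of basement membranes, was lower, with differences of -0.46 and -0.37 at the same times (adjusted p = 0.00102 and 0.0325). Testican-3 (Spock3) had the widest difference, -0.94 at 96 h with overlapping samples and -0.97 at 72 h without overlap (adjusted p = 0.0388 and 0.00214). Nrp1, a receptor for semaphorins and VEGF that can carry a chain, was lower, with differences of -0.35 and -0.40.

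The 11 genes for the linker and the heparan sulphate backbone held 3 higher and 2 lower at 96 h, and 2 higher and 1 lower at 72 h, with medians of 0.06 and 0.09. B3gat3, the glucuronyltransferase that completes the linker, averaged 9.83 ± 0.12 in invading and 9.44 ± 0.16 in non-invading samples at 96 h, a difference of 0.38 ± 0.09 (adjusted p = 0.0071). At 72 h B3gat3 was higher by 0.42. Xylt2, which adds the first xylose, was higher by 0.17 at 96 h and 0.40 at 72 h, and B3galt6, which adds a linker galactose, by 0.21 at 96 h. B3galt6 signal was low at 96 h, averaging 6.70 in invading and 6.49 in non-invading samples. Fam20b, the xylose kinase, was lower, with differences of -0.15 and -0.18, and Ext2, a subunit of the heparan sulphate polymerase, was lower, with a difference of -0.21 at 96 h.

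Among 19 measured genes that modify heparan sulphate, 5 were higher and 2 lower at 96 h and 1 higher and 3 lower at 72 h, with medians of 0.11 and 0.05. Over all genes the shares were 16.7% higher and 14.7% lower at 96 h, and 13.0% and 13.5% at 72 h. Hs6st2, which adds sulphate to the 6-O position, averaged 9.04 ± 0.18 in invading and 9.78 ± 0.07 in non-invading samples at 96 h (difference -0.73 ± 0.08, adjusted p = 0.000169). It was lower, with a difference of -0.84 at 72 h. Papss2, which makes the sulphate donor, was lower, with differences of -0.50 and -0.59 (adjusted p = 0.000555 and 0.000907). Glce, the epimerase of the backbone, was lower at 72 h, with a difference of -0.28. Heparanase (Hpse), which cuts the chains, was higher by a measured 1.09 at 96 h (adjusted p = 0.000756) and 0.66 at 72 h (adjusted p = 0.00994). Its signal was low, at 6.91 ± 0.39 in invading and 5.83 ± 0.15 in non-invading samples at 96 h, and since the non-invading means lay below a linear signal of 100 at both times no fold is given. Sulf2, which removes 6-O sulphate outside the cell, was higher by 0.30 at 96 h (adjusted p = 0.0574).

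The 16 genes of chondroitin and dermatan sulphate chains held 4 higher and 4 lower at 96 h, and 5 higher and 3 lower at 72 h, with medians of 0.07 and 0.09. Chst11, a chondroitin 4-O-sulphotransferase, averaged 10.14 ± 0.09 in invading and 9.41 ± 0.10 in non-invading samples at 96 h. The difference was 0.73 ± 0.07 (1.66-fold, adjusted p = 4.72e-05), and it was 0.60 at 72 h with overlapping samples. Dse, the epimerase that makes dermatan sulphate, was lower, with differences of -0.42 and -0.41 (adjusted p = 0.000606 and 0.00581). Csgalnact1 and Csgalnact2, which start chondroitin chains, were lower, with differences of -0.52 and -0.22 at 96 h and of -0.53 and -0.38 at 72 h. Chpf2, a chain polymerising factor, was higher by 0.24 at 96 h and 0.29 at 72 h.

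Enzymes that shed or cleave proteoglycans included genes called in both directions. Of 14 genes, 4 were higher and 5 lower at 96 h, and 3 higher and 4 lower at 72 h, with medians of 0.09 and 0.07, beside 16.7% and 14.7% of all genes at 96 h and 13.0% and 13.5% at 72 h. Adamts5, one of the proteases that cut versican, averaged 10.27 ± 0.20 in invading and 11.48 ± 0.18 in non-invading samples at 96 h, a difference of -1.21 ± 0.11 (0.434-fold, adjusted p = 4.8e-05). At 72 h it was lower, with a difference of -1.08. Adamts1, a second versican-cutting protease, was lower, with differences of -0.92 at 96 h and -0.60 at 72 h. Timp3, a matrix-bound inhibitor of these enzymes, was lower, with differences of -0.69 and -0.75. Mmp9, a gelatinase, was higher by 1.08 at 96 h (2.12-fold, adjusted p = 0.000291) and 0.60 at 72 h (adjusted p = 0.0421).

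**Figure D4:**
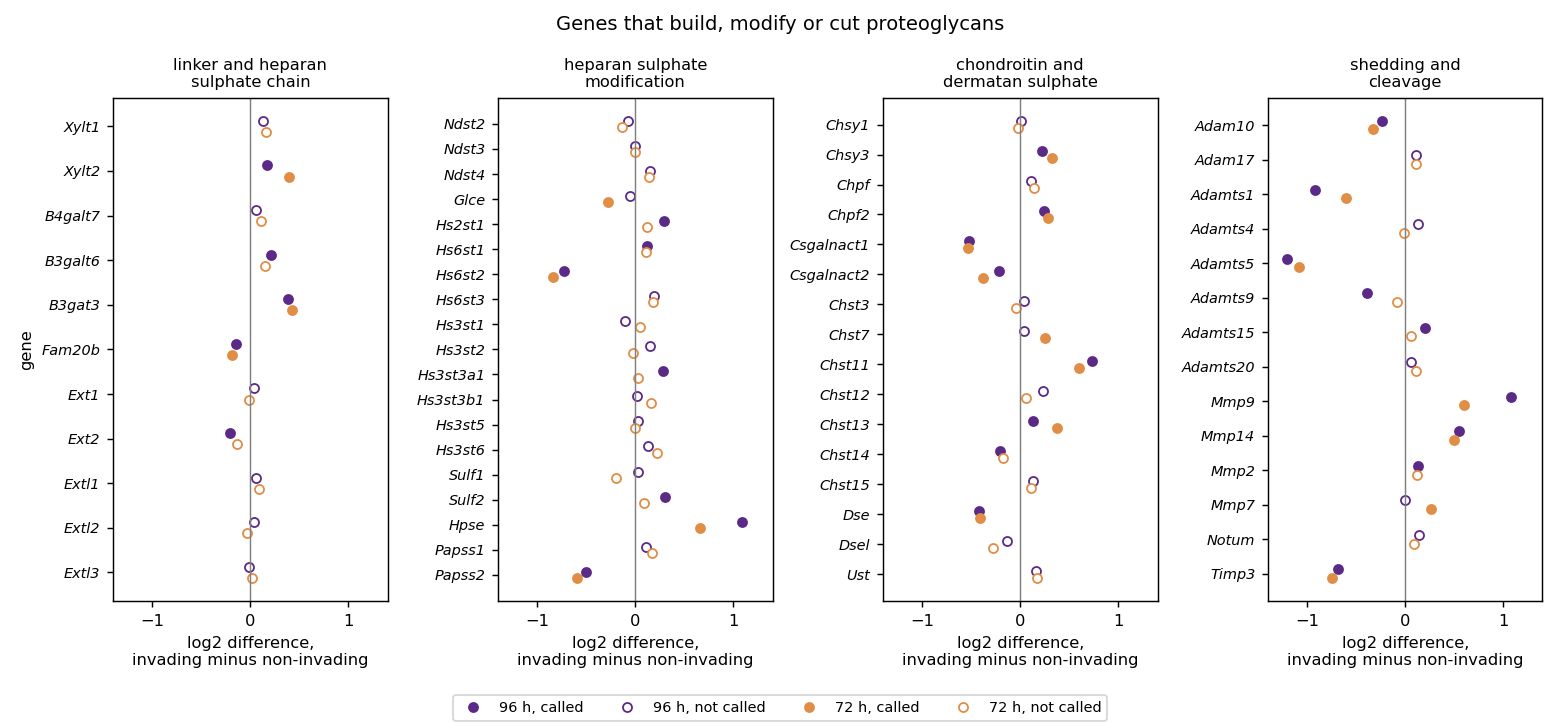
Difference in log2 signal, invading minus non-invading, on the horizontal axis for the genes of 4 lists (linker and heparan sulphate chain, heparan sulphate modification, chondroitin and dermatan sulphate, shedding and cleavage) at 96 h (purple) and 72 h (orange); filled points were called at an adjusted p under 0.10. Called genes lie on both sides of 0 in each list, with Adamts5 at -1.21 and -1.08 and Hpse at 1.09 and 0.66.

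Genes listed as partners of syndecans held 1 higher and 2 lower of 9 measured at 96 h, and 1 higher and 3 lower at 72 h. Their medians were -0.01 and -0.08. Prkca, the protein kinase C that syndecan-4 binds, was lower, with differences of -0.31 and -0.30, and Cask, a scaffold that binds syndecan tails, was lower, with -0.24 and -0.35 at 96 h and 72 h. Pdcd6ip (ALIX), which links syndecans to exosome formation through syntenin, was lower at 72 h, with a difference of -0.20. Src was higher by 0.27 at 96 h and 0.33 at 72 h.

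For versican, 12 partners in hyaluronan and elastic matrix were measured. At 96 h 2 were higher and 0 lower (0 lower also at an unadjusted p under 0.05), and at 72 h 1 was higher and 2 were lower, with medians of 0.03 and 0.04. Has2, a hyaluronan synthase, had a low signal of 6.06 ± 0.33 in invading and 6.90 ± 0.25 in non-invading samples at 72 h, a difference of -0.83 ± 0.17 (adjusted p = 0.011). At 96 h its difference was -0.17 and not called. Hmmr, a hyaluronan-binding protein that also acts in mitosis, was lower at 72 h, with a difference of -0.79 (adjusted p = 0.00274) and had a difference of -0.30 at 96 h that was not called. The link proteins Hapln4 and Hapln2 were higher, by 0.32 at 96 h and by 0.30 at 72 h in that order, and fibulin-2 (Fbln2) by 0.26 at 96 h. Hapln2 signal was low at 72 h, averaging 6.75 in invading and 6.45 in non-invading samples.

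Partners of Cspg4 held 1 higher and 4 lower of 10 at 96 h, and 1 higher and 3 lower at 72 h, with medians of -0.10 and -0.08. Lgals3, which encodes galectin-3, was the higher one and averaged 10.79 ± 0.11 in invading and 9.37 ± 0.22 in non-invading samples at 96 h. That difference was 1.42 ± 0.10 (2.67-fold, adjusted p = 1.46e-05), and it was 0.67 at 72 h (1.60-fold, adjusted p = 0.00739). The integrin subunits Itgb1 and Itga3 were lower, with differences of -0.30 and -0.31 at 96 h and of -0.45 and -0.39 at 72 h. Mcam, an adhesion protein that also counts among the pericyte markers, was lower, with differences of -0.35 and -0.44.

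Signalling genes downstream of glypicans, in the hedgehog and Wnt pathways, held 2 higher and 3 lower of 11 measured at each time, with medians of -0.03 at 96 h and 0.01 at 72 h. The transcription factors Gli1 and Gli2 were higher, by 0.17 and 0.32 at 96 h and by 0.23 and 0.39 at 72 h. Gli3 was lower, with differences of -0.43 and -0.28, and the Wnt receptor Fzd2 was lower, with -0.35 and -0.36. Wnt5a was lower at 72 h, with a difference of -0.32.

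Of the ligands that bind heparan sulphate, 12 were measured. At 96 h 4 were higher and 2 lower, and at 72 h 1 was higher and 3 were lower, with medians of 0.06 and -0.08. Bmp4 had the widest difference, with 7.98 ± 0.35 in invading and 9.77 ± 0.22 in non-invading samples at 96 h (-1.79 ± 0.16, 0.289-fold, adjusted p = 4.72e-05) and -1.92 ± 0.28 at 72 h. Cxcl12 was lower, with differences of -0.32 and -0.31, and Fgf7 was lower with -0.54 at 72 h (adjusted p = 0.0627). Hgf was higher at 96 h by 0.79 (1.72-fold, adjusted p = 0.000361) and Fgf10 by 0.45. Pdgfb was higher by 0.53 at 96 h and 0.63 at 72 h.

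Markers of the remaining cell types stayed low. Among 6 endothelial markers Cldn5 was the highest and exceeded a linear signal of 100 in 2 samples, and 0 were called at either time (1 at an unadjusted p under 0.05 at 96 h and 0 at 72 h). Their summed signal was 326 to 357 in invading and 296 to 332 in non-invading samples at 96 h, and 336 to 381 and 315 to 351 at 72 h. Among 5 measured leukocyte markers only Cd68, also a lysosomal protein, exceeded 100, in 16 samples. Their summed signal was 305 to 400 in invading and 259 to 298 in non-invading samples at 96 h, and 344 to 420 and 333 to 362 at 72 h, with 1 called higher at 96 h and 0 at 72 h (1 at an unadjusted p under 0.05 at each time). The part of these markers in the results above was not tested.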

How the data were processed

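Affymetrix Mouse Gene 1.0 ST arrays of 18 samples were used as deposited. The authors' log2 values had been background corrected, sketch-quantile normalized and summarized by RMA in Affymetrix Expression Console (version 1.2 in the submitters' processing notes). They ran from 2.94 to 14.7, and the number of arrays limits their precision. The platform annotation gave the symbols. A gene was given by the brightest of its probe sets with exactly 1 symbol (21789 probe sets, 19938 genes). A further 6617 low-numbered probe sets have no name and were kept in the fits.

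The test was limma (version 3.58.1, run under R 4.3.3), and each time had its own fit for the fractions. Comparisons between times and of the fraction effect between times used 1 fit over all 18 samples. P-values were adjusted by Benjamini and Hochberg over 35556 probe sets, with an adjusted p under 0.10 as a call and 95% intervals from the same fit. The fits were tested on simulated data: of 100 probe sets changed 2-fold among 35556, 96 were recovered at 96 h and 94 at 72 h, with 16 and 15 unchanged ones called. For the fraction effect between times 85 of 100 were recovered. Only changes of 2-fold and 3-fold were simulated, so recovery of smaller differences, such as most of those reported here, was not tested.

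The 10 members and 15 further gene lists were chosen with earlier results of these data known. The lists cover other core proteins, linker and heparan sulphate chain, heparan sulphate modification, chondroitin and dermatan sulphate, shedding and cleavage, partners of syndecans, versican and Cspg4, glypican signalling, heparan sulphate ligands, and markers of fibroblasts, epithelium, endothelium, leukocytes and pericytes. Of their 167 genes 162 were measured. All members were named, the 3 genes most like each, and up to 4 genes per list and time with the largest called difference. Replicate numbers were checked for pairing, after group means were removed. Samples with the same number correlated at 0.05 to 0.17 at 96 h and -0.07 to 0.09 at 72 h. Every pair at 72 h lay below 0.1, as did the pairs numbered 3, 4 and 5 at 96 h (0.09, 0.07 and 0.05). The labels leave pairing open, while a figure legend of the study names a paired test for array values. The fits here hold no pairing, and blocked values stand beside the results whose call they change. Alternatives were a replicate block, other normalizations, filters and thresholds, an intensity trend, 1 common fit, and leaving out each sample. Centring on probe sets with 1 symbol was added after seeing the data. Coordinates and start regions came from RefSeq (GRCm38.p6).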

Additional observations from a re-analysis of the deposited data

Results flagged for a closer look

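In 2 of 40 groups of samples (10 genes in 4 groups) 1 sample lay far from the others, and chance alone gives about 1 in 20, or 2 here. For Gpc1 in the non-invading fraction at 96 h, replicate 1 had a log2 signal of 9.56 and the other 4 samples 8.72 to 8.94, a gap of 0.735 of the range of the group. For Gpc6 in the non-invading fraction at 72 h, replicate 4 had 10.33 and the other 3 samples 10.03 to 10.08, a gap of 0.842 of the range. Both genes stayed called between the fractions without these samples. None of the 10 genes had a fraction difference that differed between 96 h and 72 h in limma (0 of 10 also at an unadjusted p under 0.05).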

How the results depend on the processing

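Every call between the fractions at 96 h and 72 h kept its direction and its side of the threshold under each alternative, leaving out any 1 sample included. Of 1028 results for single genes under alternatives, 938 kept both, 35 gained a call, 18 lost one and 37 changed sign, and all sign changes were of differences that were not called. With arrays centred on their median, members called higher numbered 7 at 96 h and 4 at 72 h (4 at 72 h also after a further quantile normalization), and the median of all genes after that normalization was 0.11 and 0.10. The split over all genes was then 38.6% higher and 12.5% lower at 96 h and 25.3% and 11.7% at 72 h. That centring gave 0.064 for Sdc2 at 72 h (0.022 on probe sets with 1 symbol) and 0.052 for Vcan at 96 h. It called Gpc3, whose signal is low, at 96 h and 72 h (adjusted p = 0.0231 and 0.0947). A limit to signals above 100 leaves Gpc3 without a value, and a mean over probe sets was not run, since each gene has 1.

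Between the times in the invading fraction, members called higher fell to 1 at an adjusted p under 0.05 and after quantile normalization, and members called lower to 1 with centring, which also gave Gpc6 0.02. Members called higher in the non-invading fraction were 1 with centring on probe sets with 1 symbol, and Vcan was -0.05 after quantile normalization. For the fraction effect between times, centring on 1-symbol probe sets gave Sdc1 -0.005, and Gpc3 was 0.022 with centring and 0.034 after quantile normalization.

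Leaving out 1 sample, members called higher between times were 1 to 3 and lower 0 to 2 in the invading fraction, and higher 0 to 1 in the non-invading fraction. Signs changed for Sdc2 at 72 h (-0.065 to 0.071) and Sdc4 at 72 h (-0.019 to 0.108). Between times they changed for Sdc4 (-0.092 to 0.016) and Gpc6 (-0.024 to 0.041) in the invading fraction and for Gpc6 (-0.076 to 0.025) and Vcan (-0.037 to 0.08) in the non-invading fraction. For the fraction effect between times they changed for Sdc1 (-0.033 to 0.062), Gpc3 (-0.073 to 0.04), Gpc6 (-0.029 to 0.085) and Cspg4 (-0.11 to 0.15). The causes were not tested.

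Whether a replicate number pairs the samples is not settled by the labels. With the number as a replicate block, Sdc2 (0.22, adjusted p = 0.0456) and Sdc4 (0.17, adjusted p = 0.051) at 96 h and Cspg4 at 72 h (0.39, adjusted p = 0.036) gained a call, and the block changed no other call. The best match of an invading sample was the non-invading one of its own number for 4 of 5 at 96 h and 1 of 4 at 72 h. The block was not fitted for the comparisons of 96 h with 72 h within a fraction. Other settings also moved calls near the threshold: Cspg4 at 72 h ranged over adjusted p of 0.036 to 0.156, and Vcan at 72 h over 0.0489 to 0.166. At 96 h the range was 0.0156 to 0.125 for Sdc2 and 0.0137 to 0.145 for Sdc4.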
